A study of Mus musculus with 4 samples.

Results

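Ptbp2 and 5 further genes whose products act on RNA were followed through both deposited tables of a mouse testis RNA-seq series. The 6 genes, Ptbp2, U2af2, Rnps1, Srrt, Elavl2 and Pum2, were picked by name out of 1815 genes that appear in either table, with their values already known. The choice therefore rests on the contrast described here, and the values of the 6 genes are given as a description without a test. The libraries labelled cKO came from 2 mice described as Ptbp2-deficient through a conditional knockout, and the WT libraries from 2 wild-type mice. All 4 were C57BL/6 males at postnatal day 25, and each library was made from the testes of 1 mouse. No source used here gives the driver or allele of the conditional knockout, and no treatment was labelled. Day 25 lies in the first wave of spermatogenesis, when round spermatids have formed. The series title sets the question as the role of Ptbp2 in alternative splicing during germ cell development.

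Pre-mRNA splicing removes introns and joins exons, and regulators bound near an exon decide how often it is kept. PTBP2 is a polypyrimidine tract binding protein: it binds runs of C and U, often beside exons that are then skipped. The same regulators are often spliced in more than one way themselves, and some of these forms carry an early stop codon. Such an mRNA can be degraded by nonsense-mediated decay, which recognises a stop lying well upstream of the last exon junction.

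The sequences below are the exons on which the splicing values of Ptbp2, Pum2, Elavl2 and Rnps1 turn, shown because they hold the stop codon, start codon or pyrimidine run discussed beside each value. They were read from GENCODE M21 transcripts (GRCm38, also called mm10), 5′ to 3′ on the transcript strand. In each gene exactly 1 annotated exon has the length of the listed event.
Ptbp2, 34-nt exon 10, wholly coding (chr3:119724612-119724645, minus strand): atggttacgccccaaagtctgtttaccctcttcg
Ptbp2, last 15 bases of exon 9 joined to exon 11, with the first in-frame stop in capitals: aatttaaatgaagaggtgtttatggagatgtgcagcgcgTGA
Pum2, coding start of the 125-nt exon, with its in-frame stop in capitals (chr12:8699064-8699120, plus strand): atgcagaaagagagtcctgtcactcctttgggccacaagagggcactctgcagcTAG
Pum2, bases 29 to 58 of the 74-nt exon, with an alternating CT run in capitals (chr12:8700177-8700206, plus strand): ctttgcctgtCTCTCTCTcaccagtcttct
Elavl2, 39-nt exon, wholly coding (chr4:91254141-91254179, minus strand): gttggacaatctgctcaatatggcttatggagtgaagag
Rnps1, first 30 coding bases in the 181-nt exon, with the start codon in capitals (chr17:24418148-24418177, plus strand): ATGgatttatcaggagtgaaaaagaagagc

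Expression was deposited as RPKM, reads scaled to gene length and to library size, for 988 genes that the authors listed as different. Of these, 63 were listed as higher and 925 as lower in the libraries labelled cKO. Among the 6 genes, 4 are in that table and all 4 are among the higher ones, while Elavl2 and Pum2 are not in it and their expression was not analysed here. Read totals do not accompany the values, so the depth of the libraries is unknown and no counting interval is given. All 17 of the 23 spermatid genes that are in the table were listed as lower. Their summed RPKM was 259 in library 1 and 78.8 in library 2 of those labelled cKO, against 1699 and 2308 in WT. Of other cells, 3 of 13 macrophage genes together had 54.7 and 69.0 RPKM in libraries labelled cKO, against 29.0 and 29.9 RPKM in WT. The Leydig gene Hsd3b1 (1 of 7 listed) was at 74.0 to 76.5 RPKM in those labelled cKO and 41.2 to 46.4 RPKM in WT, and the Sertoli gene Inha (1 of 9) at 99.6 to 138 RPKM against 70.2 to 71.7 RPKM in WT. No marker in the table is at 0, the lowest RPKM of any gene in it being 0.2. The part of this cell mix in the values below was not tested, and in whole testis fewer cells of a type and less RNA per cell cannot be told apart.

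Ptbp2, the gene named as deficient, was at 111 and 98.2 RPKM in the libraries labelled cKO, against 65.7 and 66.6 RPKM in WT libraries 1 and 2. Both libraries labelled cKO thus lay above both WT libraries, which goes against a plain reading of the label. RPKM summed over a gene does not show whether a deleted part is missing, so it checks neither the deletion nor the label. The mean was 105 ± 9.02 RPKM in the libraries labelled cKO and 66.1 ± 0.636 RPKM in WT (SD, n = 2 each), a ratio of 1.58. On the log2(RPKM + 1) scale the difference was 0.65 ± 0.27 (SE from the limma fit over all genes).

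Srrt encodes ARS2, a partner of the nuclear cap-binding complex. It was the most abundant of the 4 per length, at 168 and 147 RPKM in the libraries labelled cKO, against 98.0 and 96.7 RPKM in WT. Its groups did not overlap either, and the mean ratio was 1.62, with a log2 difference of 0.69 ± 0.27 (SE). Like Ptbp2, it was higher in library 1 than in library 2 of those labelled cKO.

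U2af2 encodes the large subunit of U2AF, which binds the polypyrimidine tract ahead of the 3′ splice site, the same kind of sequence that PTB proteins bind. It stood at 68.0 and 77.5 RPKM in the libraries labelled cKO, against 46.1 and 43.9 RPKM in WT. The lower of the libraries labelled cKO was 1.47 times the higher WT library, as it also was for Ptbp2. The log2 difference was 0.68 ± 0.27 (SE).

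Rnps1 encodes an RNA-binding protein that joins the exon junction complex and takes part in splicing and in nonsense-mediated decay. It stood at 40.3 and 48.5 RPKM in the libraries labelled cKO, against 25.7 and 26.0 RPKM in WT. This was the largest ratio of the 4, at 1.72, with a log2 difference of 0.75 ± 0.28 (SE). The ratios of the 4 genes span 1.58 to 1.72, and their differences lie closer together than 1 SE. That SE draws on the spread of all genes of the table, so nothing is read from this closeness.

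**Figure D1:**
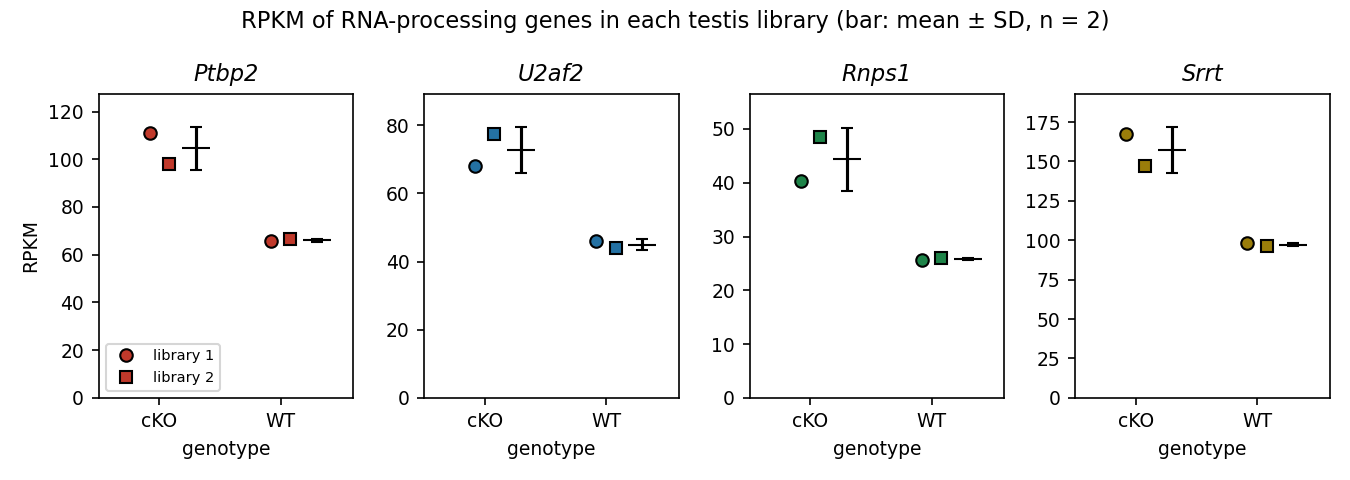
RPKM of Ptbp2, U2af2, Rnps1 and Srrt in each library, with the libraries labelled cKO on the left and WT on the right of each panel; circles are library 1, squares library 2, and bars the mean ± SD (n = 2). In each panel both libraries labelled cKO lie above both WT libraries, from 98.2 to 111 against 65.7 to 66.6 RPKM for Ptbp2.

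Per length the order was Srrt, Ptbp2, U2af2, Rnps1 in each of the 4 libraries, and within a genotype the libraries of neighbouring genes in that order did not overlap. Groups that do not overlap with a higher level in the libraries labelled cKO were found for 63 of the 988 genes, 6.38% of the table. These are all the genes listed as higher, so the share follows from the authors' selection and is not a background rate. The 4 genes belong to these by the way they were chosen, so nothing is read from their count. By the authors' deposited table they have small ratios within this group: the log2 fold change is 0.66 for Ptbp2, 0.69 for U2af2 and Srrt and 0.78 for Rnps1, against a median of 0.88 over the 63 genes. The smallest absolute log2 fold change in that table is 0.6. Their WT levels were above the median of 11.5 RPKM over the same 63 genes.

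The 4 genes split by direction between library 1 and library 2 of those labelled cKO. Ptbp2 and Srrt were lower in library 2 than in library 1 of those labelled cKO, at 88.5% and 87.8% of the level in library 1. U2af2 and Rnps1 were higher in library 2, at 114% and 121%. Among all 63 genes listed as higher, 12 were lower and 51 were higher in library 2. Markers also differed between libraries 1 and 2 labelled cKO: summed spermatid RPKM was 259 and 78.8, and macrophage RPKM 54.7 and 69.0. Inha was at 99.6 and 138 RPKM, and Hsd3b1 at 76.5 and 74.0 RPKM. The part of this in the split was not tested. Within a library, the ratio of Ptbp2 to Srrt was 0.662 and 0.667 in the libraries labelled cKO and 0.670 and 0.689 in WT. It thus varied little, whereas the ratio of Ptbp2 to U2af2 was 1.63 and 1.27 in the libraries labelled cKO and 1.42 and 1.52 in WT. These are descriptions over 4 libraries, and with 2 mice per genotype they carry no test.

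Over the whole table, the genes nearest to Ptbp2 in the shape of their levels over the 4 libraries were Srrt, Upf1, Magi3, Madcam1 and Ttc28. Nearness was the root mean square distance between centred log2(RPKM + 1) profiles, from 0.02 for Srrt to 0.07 for Ttc28. Upf1, which encodes the helicase at the centre of nonsense-mediated decay, was nearest to Srrt (0.02), followed there by Ptbp2, Madcam1, Magi3 and B3galnt1. It was at 41.3 and 35.3 RPKM in the libraries labelled cKO and 24.2 and 23.1 RPKM in WT. Nearest to U2af2 were Plau, Taf1d, Ebf1, Wsb2 and Rnps1, and nearest to Rnps1 were Camk2d, Wsb2, Taf1d, Klc1 and Plau. Madcam1, Ttc28, Plau, Ebf1 and Camk2d had WT levels of 1.03 to 1.53 RPKM, so their profiles rest on values near the low end of the table.

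**Figure D2:**
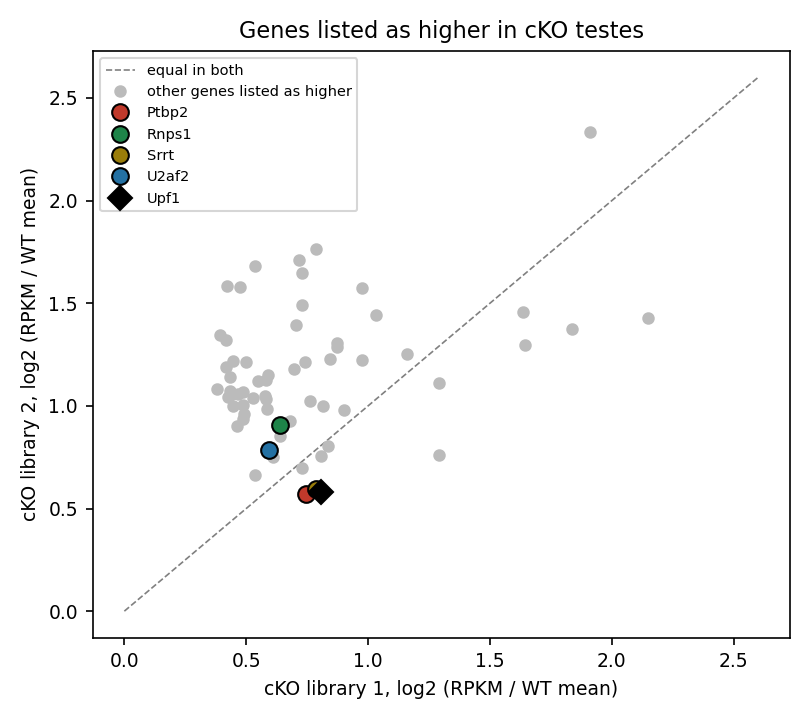
Log2 ratio of RPKM to the WT mean in library 1 (horizontal axis) and library 2 (vertical axis) labelled cKO for the 63 genes listed as higher; the dashed line marks equal ratios, and coloured points are the genes named in the legend. Ptbp2, Srrt and Upf1 lie together below the line, while U2af2 and Rnps1 lie above it with most of the others.

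RPKM values are relative to the total reads of a library, so a loss of abundant transcripts raises the rest. With annotated exon lengths, available for 910 of the 925 genes listed as lower, these genes held an estimated 5.62% and 3.74% of reads in the libraries labelled cKO and 11.5% and 12.0% in WT. The reads left for all other genes were then 1.08 times as many in the libraries labelled cKO as in WT, or 1.04 times with median transcript lengths. The part of this in the ratios of the 4 genes was not tested. The estimate covers listed genes only, and the gene lengths the authors used are not known here.

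Splicing was deposited as 1 ΔPSI per event, that is, the difference between genotypes in percent spliced in (points). The sign convention is not stated, so a negative value cannot be read as lower or higher inclusion. The table has neither values for single libraries nor coverage, so replicate error cannot be given. The table holds 1223 events in 915 genes, and 5 of the 6 genes have 7 of them, U2af2 having none. Of these 7 events, 6 are negative and 1 is positive, and 3 reach 20 points. Among all events 59.4% are negative and 21% reach 20 points, as do 22.3% of cassette exons; the genes were chosen with these values known, so nothing is read from the comparison. Event coordinates below are mm9, as deposited, counted from 1.

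Pum2, an RNA-binding protein of the Pumilio family that represses the translation and stability of target mRNAs, carried the largest change of these genes. Its 74-nt cassette exon (chr12:8706955-8707028) had a ΔPSI of -61, and 4 of the other 740 cassette exons had a larger absolute value. The 125-nt exon just upstream (chr12:8705870-8705994) had -11, equal in size to the median absolute value of 11 over all cassette exons. Both together, scored as tandem cassettes (chr12:8705870-8707028), had -28. These events overlap and share reads, so they are 1 region of the gene seen in 3 ways. The starts of both exons lie 1085 bases apart in the deposited mm9 coordinates and also in the GRCm38 annotation.

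Neither Pum2 exon occurs in an annotated coding transcript of the gene. The 125-nt exon is found in 2 and the 74-nt exon in 1 of 16 annotated transcripts, and each of these is annotated as subject to nonsense-mediated decay. Computed on transcript Pum2-202, which has an open reading frame of 1064 codons, adding the 125-nt exon ended the frame after 35 codons at the TAG printed above. Adding the 74-nt exon alone shifted the frame and ended it after 101 codons, 2831 nt upstream of the last exon junction. With both exons the frame again ended after 35 codons. These are computations on the annotation; protein and decay were not measured.

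The 74-nt exon of Pum2 was also rich in pyrimidines. C and T made up 68.9% of its bases, and 2 of 608 cassette exons with a unique length match in their gene had a higher share. The median share over those exons was 47.9%, and the 125-nt exon was at 52.0%. The hexamer CTCTCT, a run of the type PTB proteins bind, occurs in the 74-nt exon, in the stretch printed above. On the transcript strand it occurs in 39 of the 608 exons (6.41%), and in 4 of the 142 exons within 15 nt of the same length (2.82%). Its reverse complement AGAGAG occurs in 43 exons (7.07%). A match of letters does not show binding, and the introns around the exons were not analysed here.

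Ptbp2 had 1 event, the 34-nt cassette exon (chr3:119427530-119427563), with a ΔPSI of -9. Of the 741 cassette exons, 58.7% had a larger absolute change. The exon begins on a codon boundary and its length leaves a remainder of 1 when divided by 3. Exon 10 is present in 3 annotated transcripts of the gene, all coding. Joining exon 9 to exon 11 in transcript Ptbp2-201 ended the reading frame after 356 codons instead of 532. The TGA printed above lies 27 bases into exon 11, counted to its last base, and 361 nt upstream of the last exon junction. The annotated transcripts Ptbp2-206 and Ptbp2-208 lack the exon and are labelled as subject to nonsense-mediated decay. In mouse cells where PTBP1 is abundant, this exon is known to be skipped and the resulting mRNA degraded.

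The pyrimidine share of the Ptbp2 exon was 64.7%, and 14 of the 608 matched exons had a higher one. CTCTCT was not found in its 34 bases. The only other cassette exon of the same length, in Ccdc163, had the same pyrimidine share of 64.7%, also without CTCTCT. Its ΔPSI was 18, the opposite sign. At the level of the gene, Ptbp2 was the 1.58-fold higher transcript described above, and the gene is thus listed in both tables. The direction of the exon's change cannot be read from the sign.

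Elavl2 encodes a Hu family protein that binds AU-rich RNA and is known for its role in neurons. Its 39-nt cassette exon (chr4:90920832-90920870) had a ΔPSI of -27, which is repeated in the authors' second splicing table beside Pum2 at -61 and -28. Of all cassette exons, 13.6% had a larger absolute change. The length is divisible by 3, and taking the exon out of transcript Elavl2-201 left a frame of 347 codons, against 360 with it, without moving the stop. Of 12 annotated coding transcripts of the gene, 6 hold the exon. The 6 other cassette exons of 39 nt, in Eya3, Sec31a, Spag9, Tpp2, Upf3b and Zfp94, had ΔPSI values from -15 to 11. Its pyrimidine share, 41.0%, was below the median.

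Rnps1 had a 181-nt cassette exon (chr17:24554983-24555163) with a ΔPSI of -6.5, and 72.5% of cassette exons had a larger absolute change. In the annotation this exon is found in 2 of 11 transcripts of the gene, both coding. It holds the start codon of transcript Rnps1-201: 110 of its bases precede the ATG printed above and 71 follow from it. Annotated transcript Rnps1-202 lacks the exon, has another start, and encodes 282 codons instead of 305 in Rnps1-201. Srrt had 1 retained intron (chr5:137737701-137738196) with a ΔPSI of 3, the only positive value among the 7 events, and 81.7% of retained introns had a larger absolute change. Its 496 nt equal neither an annotated intron of Srrt nor a span of neighbouring exons, so its reading frame was not computed.

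**Figure D3:**
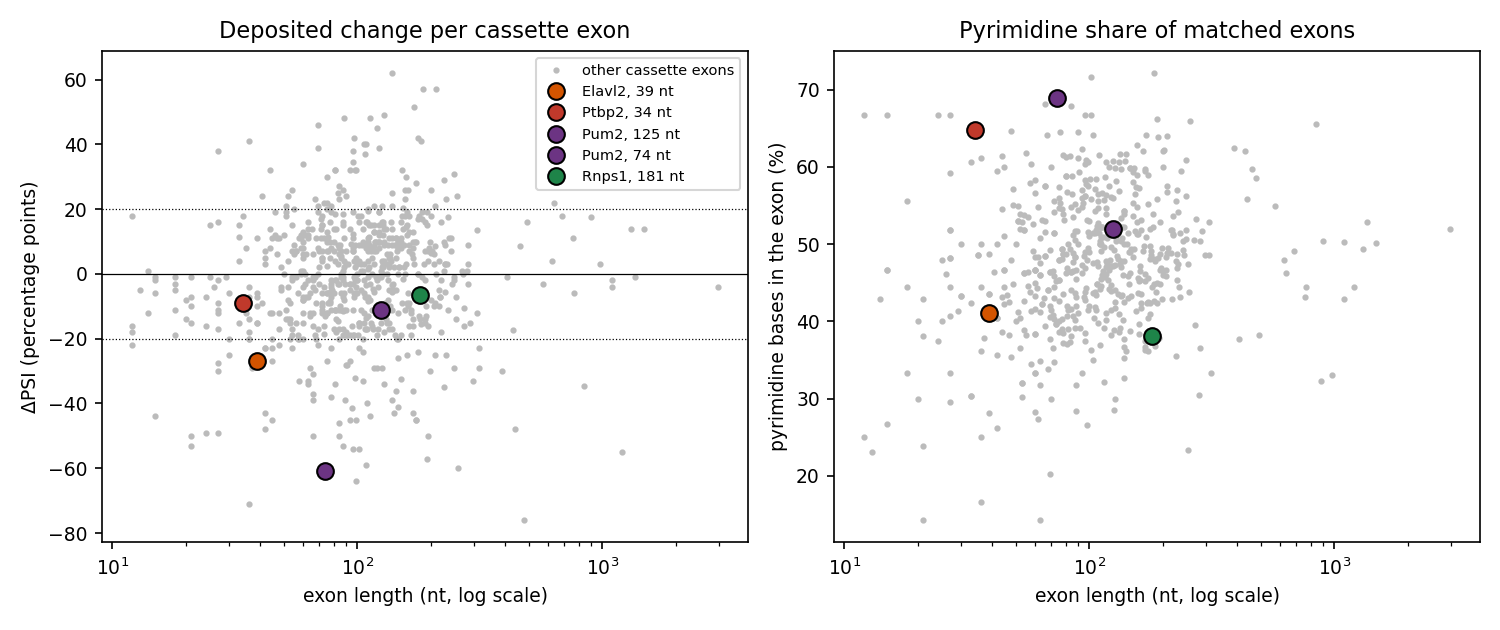
Left, ΔPSI of all 741 cassette exons against exon length on a log scale, with dotted lines at 20 points; right, pyrimidine share of the 608 exons matched by length; coloured points are exons of Elavl2, Ptbp2, Pum2 and Rnps1. The 74-nt Pum2 exon sits at -61 points and 68.9% pyrimidines, near the edge in both panels, and the Ptbp2 exon at -9 points and 64.7%.

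Of the 5 cassette exons in these genes, 4 have lengths not divisible by 3 and 1, that of Elavl2, is divisible. Among all cassette exons 328 of 741 (44.3%) are not divisible by 3. The exons of Pum2 lie near the start of the frame and that of Ptbp2 past the middle of the coding sequence. The Rnps1 exon lies partly ahead of the start codon, and the annotated forms with and without it end at the same stop, so its length says nothing about a shift.

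**Figure D4:**
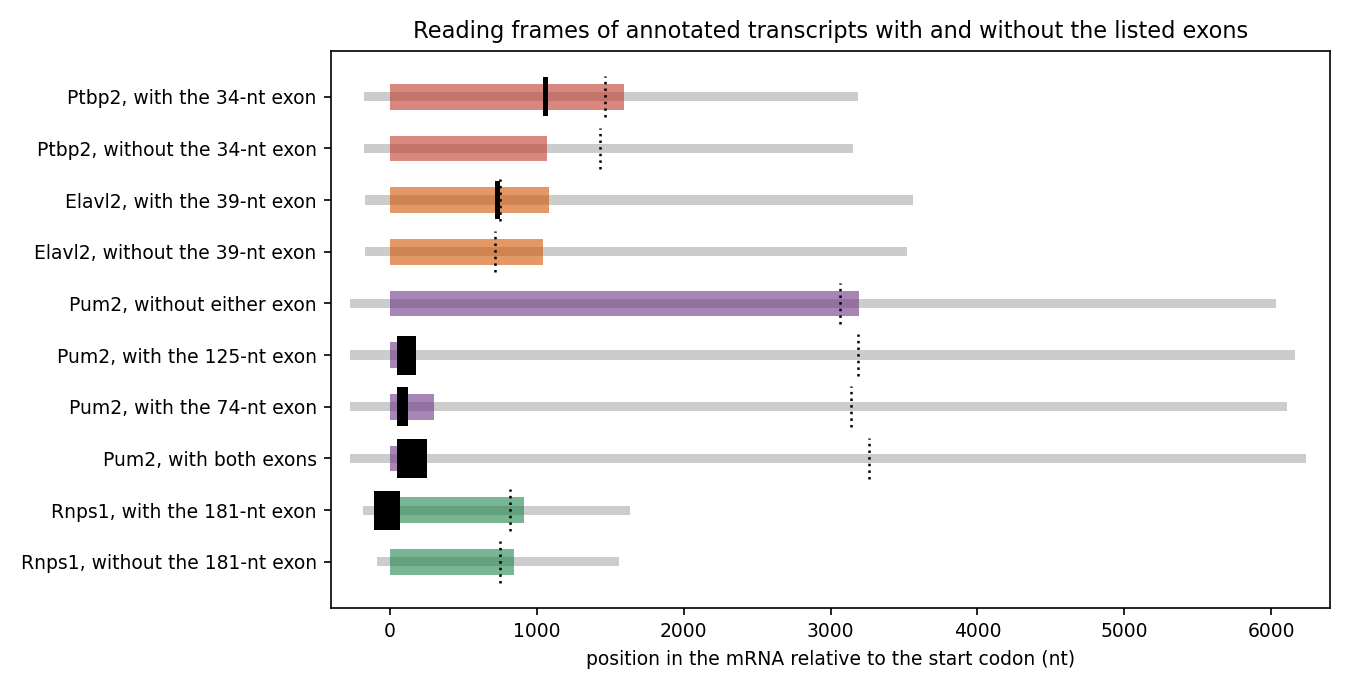
Annotated or computed mRNAs of Ptbp2, Elavl2, Pum2 and Rnps1 with and without the listed exons, by distance from the start codon in nt; grey lines are mRNA, coloured bars the open reading frame, black blocks the listed exons and dotted marks the last exon junction. The frame of Pum2 ends after 35 or 101 codons when either exon is added, against 1064 without them, and that of Ptbp2 after 356 without its exon, against 532 with it.

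The wider machinery was read from 9 lists holding 218 genes, chosen with earlier results of these data known. Of the 218 genes 8 are in the expression table, the 4 described above and Upf1, Celf6, Ybx2 and Papolb. By limma with Benjamini-Hochberg adjustment over all genes, 83.9% of the table passed the threshold of 0.05 as lower and 1.92% as higher. Of these last 4 genes 2 passed as lower and 0 as higher, with 0 higher at an unadjusted p under 0.05 as well. The other 4 were chosen for their higher level and are not counted. Their median cannot stand for the list, since the table holds only genes selected for difference. Ybx2, a germ cell Y-box protein that binds stored mRNAs, fell: the libraries labelled cKO had 320 and 264 RPKM, against 563 and 561 RPKM in WT, with an adjusted p of 0.0312 in limma. Celf6, a CELF family splicing factor, fell as well, with 1.72 and 1.17 RPKM in libraries labelled cKO and 3.29 and 3.40 RPKM in WT, and an adjusted p of 0.0438 in limma. With either WT library left out 0 of these genes passed, but the remaining WT library is then assumed to vary like the libraries labelled cKO, so the spread comes from those alone. Papolb, a testis poly(A) polymerase, stood at 84.3 and 51.3 RPKM in the libraries labelled cKO and 131 and 130 RPKM in WT and did not pass, with an adjusted p of 0.0501 in limma. Upf1 did not pass either (adjusted p = 0.0662 in limma).

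For splicing, 42 of the 218 genes have 63 events. Leaving out the 6 genes, 37 list genes have 56 events, of which 38 are negative (67.9%, against 59.4% of all events) and 18 positive. Of these 56 events 1, in Thoc5, reaches 20 points (1.79%), and with the 6 genes kept 4 of 63 do (6.35%), against 21% of all events. Since the 6 genes were chosen with their values known, leaving them out lowers the share, and nothing is read from it. The median absolute ΔPSI was 7 with or without the 6 genes, against 11 over the whole table. Thoc5, a subunit of the THO complex that couples transcription to mRNA export, had -20 for a 36-nt exon. The SR protein kinase genes followed: Clk1 had -19 for a 91-nt exon and -14 and -7 for retained introns, Clk4 had -19 for a 67-nt exon, and Clk3 had -13 for a retained intron. All 6 events of the SR list, in 4 genes, were negative, the last of them a retained intron of Srsf7, itself an SR protein, at -18. The 4 events of the 3′ end processing list and the 2 of the PTB family list were all negative too, against 59.4% of all events. The 91-nt exon of Clk1 lies inside its retained intron at -14, so these events can share reads, and nothing is read from the count.

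Other genes had values of similar size with both signs. Luc7l2, a U1 snRNP-associated factor, had 18.5 for tandem cassettes, -12 for a retained intron and 6 for a cassette exon. Magohb, a core subunit of the exon junction complex that Rnps1 joins, had 18 for a 200-nt exon. The splicing regulator Qk had 18 for an alternative 3′ splice site, and Rbm4, another one, had 18 for a 682-nt exon. Fxr1, a relative of the fragile X protein, had -15 for a retained intron, 8 for tandem cassettes and 4 and 3 for cassette exons. Exons of Msi2 and Nxt1 had 11, and exons of Fip1l1, Puf60 and Rbm39 and a retained intron of Pabpn1 had -11. Of the PTB family and its partners, Ptbp2 and Matr3 (-2) had an event, and none of the 8 genes in that list but Ptbp2 is in the expression table.

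**Figure D5:**
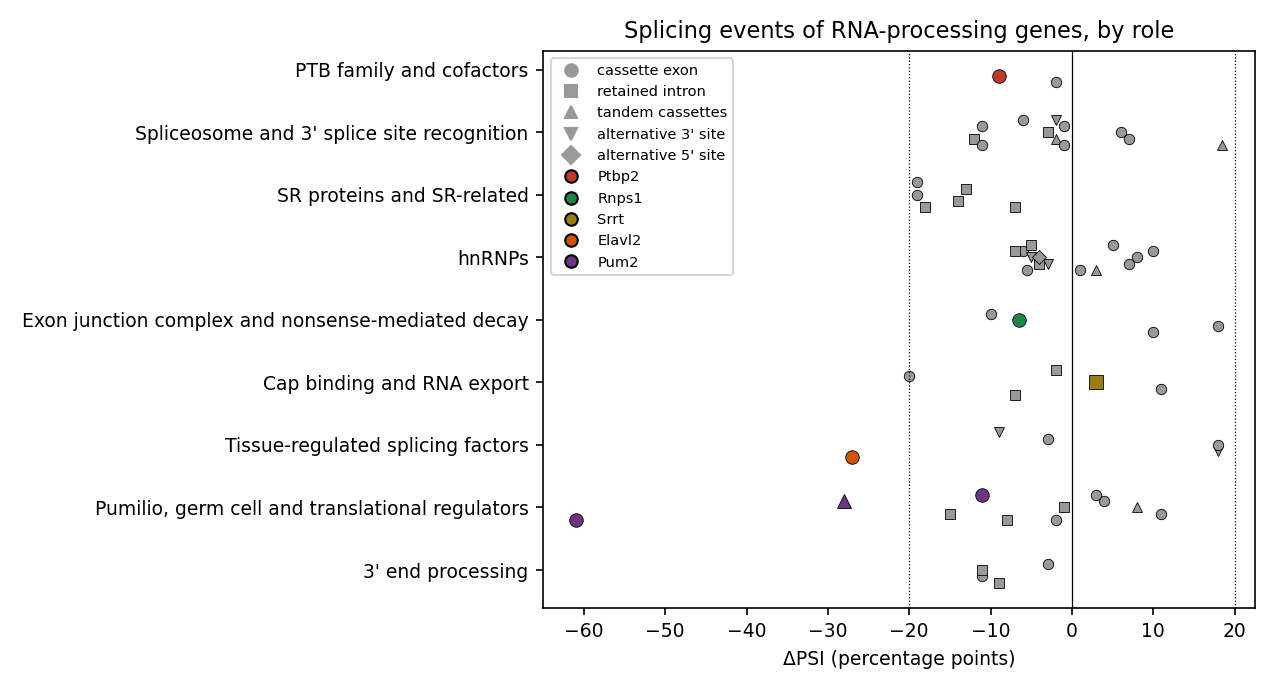
ΔPSI of the 63 events in RNA-processing genes, 1 row per list, with symbols for the type of event and colours for Ptbp2, Rnps1, Srrt, Elavl2 and Pum2; dotted lines mark 20 points. Beyond 20 points lie events of Pum2 at -61 and -28 and Elavl2 at -27, with Thoc5 on the line at -20.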

How the data were processed

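Poly(A) RNA of 2 libraries labelled cKO and 2 WT libraries was sequenced, 1 library per mouse. The authors deposited RPKM per library and per genotype mean for selected genes, a log2 fold change and an adjusted p-value (4 decimals), and for splicing a signed score per event, ΔPSI, per the file headers. The submitters' processing notes name mm9 and mm10 without a role; no source used here gives the aligner, counter or splicing caller. The largest deposited adjusted p-value is 0.0099. The table was selected on these libraries, so tests on it are not independent evidence. Of 1223 splicing rows, 308 without a name took the name above. Members and lists were chosen with earlier results of these data known. All list genes in the expression table, and the list genes with the 15 largest absolute ΔPSI and ties, are named. RPKM were tested with limma 3.58.1 (R 4.3.3) on log2(RPKM + 1), threshold 0.05, no block, and the code was tested on simulated data. Folds on this scale understate changes of low genes. Exons were matched by length to GENCODE M21, and coordinates were not converted. Tables and figures used Python 3.11.15, pandas 2.3.3 and matplotlib 3.10.9.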

Additional observations from a re-analysis of the deposited data

How the results depend on the processing

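The settings run were pseudocount 0.1, mean RPKM of at least 1, replicate block, crossed block and each library left out. The log2 differences of Ptbp2, U2af2, Rnps1 and Srrt were positive under all of them. For these genes both libraries labelled cKO lie above both WT libraries, so no setting could turn the sign and nothing is read from it. When single libraries were left out, the differences ranged from 0.56 to 0.74, 0.59 to 0.77, 0.62 to 0.88 and 0.59 to 0.78. The same omissions gave limma counts over the table of 0 to 63 higher genes and 353 to 925 lower genes, and for the RNA-processing lists 0 to 5 higher, of which 4 were chosen for their higher level, and 0 to 3 lower. The counts of 0 arose without either WT library, where 0 and 1 genes over the table were higher at an unadjusted p under 0.05. Leaving out a library leaves 1 in its group, which is then assumed to vary like the other group, so the spread is that of the libraries labelled cKO without a WT library and that of WT without a library labelled cKO; these counts say little about single genes. With the replicate number as a block, the table gave 2 higher genes and the lists 0 lower genes. Deviations of libraries with the same number correlated at -0.33 across genes. That value compares 1 difference between libraries per genotype, so whether the numbers pair the mice cannot be told from it. A crossed block, chosen after seeing the data, gave 10 higher genes over the table and 1 lower list gene. With 10 points in place of 20, 687 events of the table and 25 of the lists passed, and with printed names only 2 list events reached 20 points, since Pum2 rows without a name were left out. Depth is unknown for both tables, and ΔPSI has no error of its own.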
